A study of Rattus norvegicus with 10 samples.

Results

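Short unnamed intergenic loci are places in the rat genome where RNA fragments piled up outside every locus that carries a gene name. They were taken from the deposited table as loci with no gene name, a span (end minus start) under 1000 bp and no base shared with a named locus, and were selected on a mean of 1 FPKM or more over the vehicle and BDE-47 columns. FPKM divides the fragments assigned to a locus by its transcript length in kilobases and by the size of the library. In all, 4993 of 94827 loci met this rule. Another 25427 short unnamed intergenic loci fell below the level limit, which leaves the 4993 as members out of 30420. Both columns enter this mean, so the levels and the difference between the columns are given here as descriptions of the members. At the level limit, the member chr4:227736701-227736959 was just inside, with 0.566 FPKM in the vehicle column and 1.43 FPKM in the BDE-47 column. The locus chr11:87308266-87308726 was just outside, with 0.883 and 1.12 FPKM. At the span limit, chr3:101133194-101134193 was the widest member with 1.78 and 1.67 FPKM, and chr6:137543652-137544652 was outside at 1000 bp with 4.29 and 2.95 FPKM.

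The adult testis is known for RNA from a larger part of the genome than most tissues make, much of it in meiotic and haploid germ cells, whose chromatin is opened and repacked. A short stretch of such RNA outside the annotation can be an exon of a gene that the annotation lacks, the far end of a neighbouring gene's transcript, a copy of a spliced messenger RNA pasted back into the genome, or a small structural RNA. The variable and constant segments of antibody and T cell receptor genes are another known source, because standard gene models often leave them out. Which of these a locus is cannot be read from its position and level.

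The RNA came from testis of male Wistar rats at postnatal day 120. Their mothers, in groups of 7, were fed stripped corn oil or 0.2 mg/kg body weight of BDE-47 in that oil each day, from pregnancy day 8 to postpartum day 21. BDE-47 is a brominated flame retardant that persists in body fat. The labels put 5 poly(A) libraries of offspring in each group, and do not tie a library to a litter. The pups met the compound only through the mother, and both groups received the oil.

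The deposited table holds 1 value per group and locus, so no spread between libraries, no error and no p-value can be given, and no difference below has a replicate check. Depth per library is unknown. The direction of every difference rests on the column names. The titles of BDE-47 libraries carry a C code and those of vehicle libraries an X code, and which libraries make up a column is not recorded. The extraction text names liver where the tissue labels name testis. Late spermatid markers were the most abundant of the lists examined, with a sum of 93905 FPKM over 16 genes in the vehicle column, and the 12 liver genes summed to 1511 FPKM there. Of the liver list, Serpina1, a protease inhibitor, gave 1479 FPKM, Hp (haptoglobin) 23.1 FPKM and Fgb (a fibrinogen chain) 5.24 FPKM, while Alb (albumin) and Apoa1 (of high-density lipoprotein) stood at 0.920 and 1.21 FPKM. The sum of the spermatid list was 39991 FPKM in the BDE-47 column, and 11 of its 16 genes were at least 2-fold lower and 0 higher. In the same column, 13 of 15 Sertoli cell markers, 12 of 12 Leydig cell markers and 13 of 16 macrophage markers that reached a mean of 1 FPKM were at least 2-fold higher, and 0 were lower. The sums of these lists were 705, 211 and 656 FPKM in the vehicle column and 3481, 1947 and 1339 FPKM in the BDE-47 column. Most of the macrophage sum in vehicle came from Aif1, a calcium-binding protein gene, which went against the list with 505 FPKM in vehicle and 413 FPKM in BDE-47. In bulk tissue, fewer cells of a type and less RNA per cell cannot be told apart. The part of these cell type markers in the values of the unnamed loci was not tested.

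The members were short and mostly weak. Their median span was 238 bp, with quartiles of 182 and 417 bp and a shortest member of 73 bp. The median level was 1.45 FPKM in the vehicle column and 2.64 FPKM in the BDE-47 column. Levels of at least 10 FPKM were reached by 548 members in vehicle and by 846 in BDE-47, levels of at least 100 FPKM by 75 and 134, and levels of at least 1000 FPKM by 5 and 4. Summed over the members, the FPKM made up 5.98% of the whole vehicle column and 8.74% of the whole BDE-47 column. Of the 4993, 2985 had at least 1 FPKM in both columns, 1707 in the BDE-47 column only and 301 in the vehicle column only.

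Members tended to be higher in the BDE-47 column. The difference is log2(FPKM + 1) in BDE-47 minus log2(FPKM + 1) in vehicle, and a locus is called higher or lower where this reaches at least 2-fold, which is a rule of size and no test. By this rule 1622 members (32.5%) were higher and 167 (3.34%) were lower, and 3204 lay within 2-fold. Among all 32602 loci that reached a mean of 1 FPKM, 22.5% were higher and 2.82% lower. The median difference was 0.60 for the members, with quartiles of -0.05 and 1.20, and 0.32 for all these loci. Unnamed intergenic loci of 1000 bp or more, the class most like the members, had 14.3% higher, 244 loci lower and a median difference of 0.16 over 11643 loci. Named loci had 27.6% higher, 3.55% lower and a median of 0.37 over 13152 loci. The difference between these classes has no test, since the level rule used both columns and no library values exist.

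**Figure D1:**
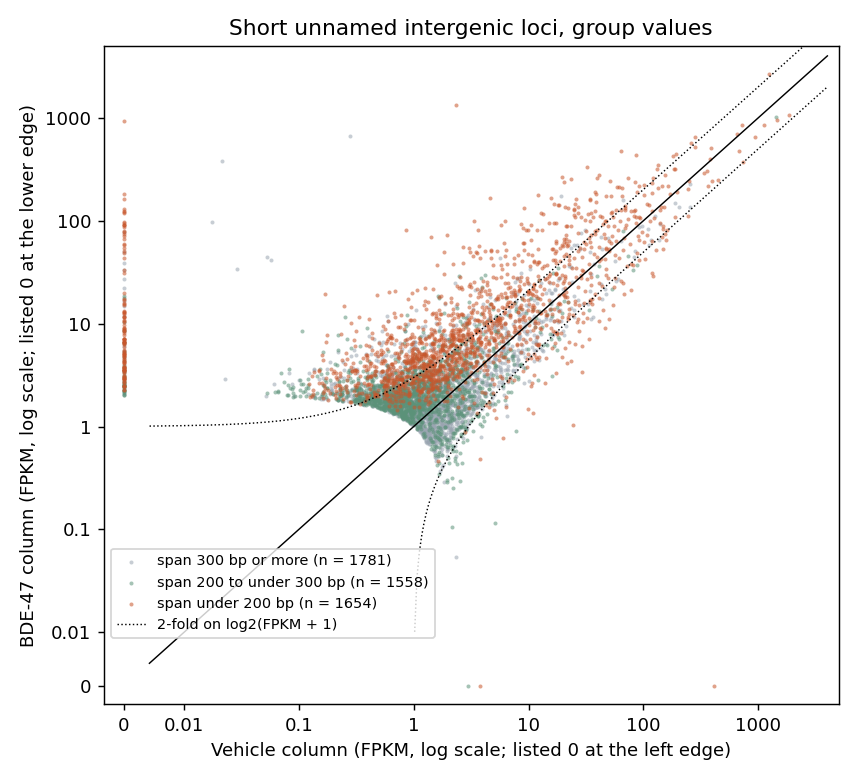
Level of each of the 4993 short unnamed intergenic loci in vehicle (horizontal axis) and BDE-47 (vertical axis), in FPKM on log scales, with a listed 0 drawn at the edge; points are loci coloured by span, the solid line marks equal values and the dotted lines 2-fold. Above the upper dotted line lie 56.0% of the 1654 loci under 200 bp and 16.5% of the 1781 of 300 bp or more, and 166 loci sit at a listed 0 in vehicle and 3 in BDE-47.

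The scaling of the columns sets a large part of this split. The BDE-47 column sat 0.43 higher on the log2 scale by a median of ratios over named loci. With that shift taken out, 1059 members were higher and 351 lower, so higher loci made up 75.1% of the calls in place of 90.7%, and the share over all loci moved to 60.8% from 88.9%. With the columns forced to the same distribution, 995 were higher and 477 lower, which is 67.6% of the calls, and 56.2% over all loci. The median difference of the members stayed above 0 in both cases, at 0.31 and 0.21. That of the long unnamed loci turned negative, at -0.14 and -0.25.

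Passing the level limit in 1 column alone also feeds the split, because a member that passed through the BDE-47 column had to be higher there. Of the 1707 members with at least 1 FPKM in the BDE-47 column only, 953 were called higher, and of the 301 with at least 1 FPKM in the vehicle column only, 31 were called lower. Among the 2985 members with at least 1 FPKM in both columns, 669 (22.4%) were higher and 136 (4.56%) lower, beside 16.5% and 3.23% of 25544 loci of every kind under the same limit. Their median difference was 0.32. Named loci under that limit had 22.9% higher and 3.77% lower, close to the members, and long unnamed intergenic loci 8.10% and 2.36%.

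The share of higher members went down as span went up. The 195 members under 100 bp had 61.5% higher and 5.64% lower, with a median level of 30.3 FPKM in the vehicle column and 88.6 FPKM in the BDE-47 column. From 100 to 149 bp, 58.5% of 479 members were higher, with median levels of 5.39 and 13.6 FPKM. From 150 to 199 bp, 53.7% of 980 were higher, with median levels of 1.39 and 4.08 FPKM. In wider classes it was 25.9% of 1558 members from 200 to under 300 bp, 17.7% of 792 to under 500 bp, 15.7% of 572 to under 750 bp and 15.1% of the 417 widest, from 750 bp up. Long unnamed intergenic loci had 11.7% higher from 1 to 2 kb, 10.9% from 2 to 5 kb and 17.0% above 20 kb.

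The median difference followed the same course, from 1.40 under 100 bp and 1.09 from 150 to 199 bp to 0.61 from 200 to under 300 bp and 0.08 from 750 bp up. Under a median-of-ratios scaling the classes under 300 bp kept a positive median, of 0.97, 0.88, 0.76 and 0.33, while the 3 classes from 300 bp up turned negative, at -0.05, -0.17 and -0.17. With at least 1 FPKM in both columns, the share higher was 57.5% under 100 bp, 50.9% from 100 to 149 bp and 33.9% from 150 to 199 bp, against 10.3% from 200 to under 300 bp and 7.01% from 750 bp up. In each range of mean level, members under 200 bp were called higher more often than wider ones. At a mean of 1 to 2 FPKM the shares were 64.0% and 19.2%, at 20 to 100 FPKM 54.5% and 21.7%, and at 100 FPKM or more 37.2% of 86 and 27.3% of 11.

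A short locus reaches a given FPKM with few fragments. FPKM multiplied by the span in kilobases, a rough stand-in for the library's share of fragments because the effective length used by Cuffdiff is not in the table, had a median of 5.70 under 100 bp, 1.34 from 100 to 149 bp and 0.488 from 150 to 199 bp. It was lowest, at 0.364, from 200 to under 300 bp, and reached 1.52 from 750 bp up. Where the effective length is below the span, this product is too large. The values therefore do not show which span classes had more fragments. FPKM of a locus about as long as a sequenced fragment depends strongly on the length correction of the tool, and whether that correction differed between the columns was not tested. Of named loci that reached a mean of 1 FPKM, 41 were under 1000 bp, and 16 of these were higher and 11 lower, so few named genes of this size stand beside the members.

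**Figure D2:**
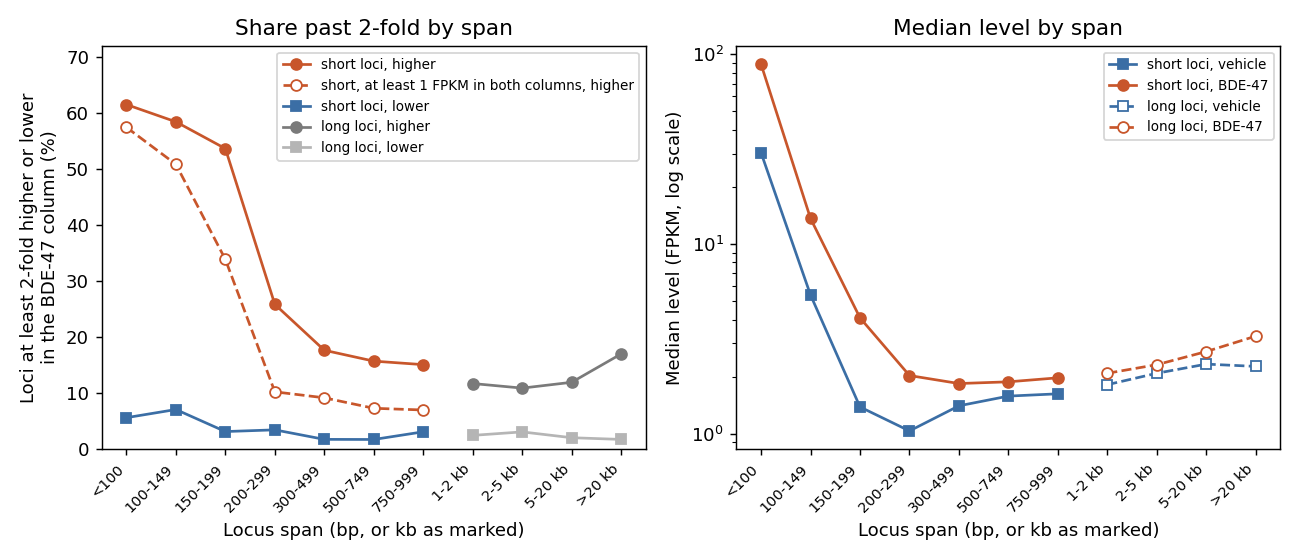
Left, share of unnamed intergenic loci at least 2-fold higher or lower in BDE-47, in percent, by span class; right, median level in each column in FPKM on a log scale. The share higher goes from 61.5% under 100 bp to 15.1% in the widest short class, and stays between 10.9% and 17.0% for long loci.

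A listed 0 stood in the vehicle column for 166 members and in the BDE-47 column for 3. Such a 0 can be a failed estimate, so it does not show that RNA was absent, and no plain ratio to it is given. It does enter the differences and the 2-fold calls, as 0 in log2(FPKM + 1). A listed 0 in vehicle went with at least 10 FPKM in BDE-47 at 55 members, and 1 was the other way round. Over all 32602 loci, 79 loci (0.242%) had the first pattern and 3 (0.0092%) the second. The 55 lay on 18 chromosomes and had 10.3 to 929 FPKM in the BDE-47 column, with a median of 33.4 FPKM. Of these, 43 were under 150 bp and 20 under 100 bp.

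The highest of them was chr6:149176830-149176926, a locus of 96 bp listed at 0 in the vehicle column with 929 FPKM in the BDE-47 column. Next came chr6:149392980-149393056 with 184 FPKM, chr4:38055959-38056035 with 164 FPKM and chr14:46780890-46780964 with 130 FPKM, each of 74 or 76 bp and listed at 0 in the vehicle column. The chromosome 4 locus lies 15037 bp from Ndufa4, a subunit of the respiratory chain, which had 17.9 FPKM in the vehicle column and 82.1 FPKM in the BDE-47 column. Away from these chromosomes, chrX:68104286-68104381 had 97.7 FPKM, chr1:107762860-107762943 had 95.7 FPKM and chr2:177840031-177840109 had 91.8 FPKM, and all 3 were listed at 0 in the vehicle column.

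The member with the highest level in the BDE-47 column among the 10 largest differences was chr5:88667672-88667782, with 2.35 FPKM in the vehicle column and 1333 FPKM in the BDE-47 column, a difference of 8.64. It is 110 bp long and lies between Tlr4, the receptor for bacterial lipopolysaccharide, 1963370 bp away, and Brinp1, a neural gene, 344863 bp away. The 10 largest differences summed to 2.65 FPKM in the vehicle column and 4150 FPKM in the BDE-47 column. Of these 10, 8 were under 150 bp and 7 were listed at 0 in the vehicle column. They were not spread evenly, since 3 lay in 1 interval of chromosome 6, 2 in 1 of chromosome 3 and 2 in 1 of chromosome 14. These intervals were picked after their values were seen.

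The chromosome 6 interval runs from Adam6, a testis-expressed gene of the ADAM family, to Zfp386, a zinc finger gene, over 5.39 Mb of rn5. Between the same neighbours the newer rat assembly GRCr8 lists 171 genes, of which 145 are V segments, the gene pieces that are joined to make the variable part of an antigen receptor. Of the 17 members here, 13 were higher and 0 lower, and 16 had a larger value in the BDE-47 column. Their sums were 14.9 FPKM in the vehicle column and 1435 FPKM in the BDE-47 column, and 12 of the 17 were under 1 FPKM in the vehicle column, so they passed the level limit only through the BDE-47 column. Before that limit, 15 of 30 short unnamed loci of the interval were higher and the median difference was 0.99, against 2.32 for the members. Over all 30420 short unnamed intergenic loci before the limit, 6.89% were higher and the median was 0.28.

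Beside the strongest 96 bp locus, chr6:149662370-149662466 was listed at 0 and stood at 78.2 FPKM in the BDE-47 column, and chr6:151714041-151714151 was listed at 0 and stood at 123 FPKM. The widest, chr6:151309829-151310341, was listed at 0 in the vehicle column with 27.1 FPKM in the BDE-47 column. The exception was chr6:147849802-147850179, with 1.99 FPKM in the vehicle column and 0.702 FPKM in the BDE-47 column. Of the 17 long unnamed loci of the interval that reached a mean of 1 FPKM, 13 were higher and 2 lower. Of these 17, 11 were listed at 0 in the vehicle column. These, and any others under 1 FPKM there, passed the level limit only through the BDE-47 column. Several of these rows have the same span of 338630 bp and may share bounds. Of the flanking genes, Adam6 had 65.8 and 60.1 FPKM and Zfp386 had 57.3 and 120 FPKM. On the other side of Adam6 lies Crip1, a small LIM-domain protein gene with 7.73 and 80.4 FPKM. Between Crip1 and Adam6 GRCr8 lists 12 genes, of which 4 are C regions, the constant parts of such receptors. Before the level limit, 2 of 18 short unnamed loci of this stretch were higher, with a median difference of 0.20. The single member of this stretch, chr6:147047230-147048165, was listed at 0 in the vehicle column with 22.2 FPKM in the BDE-47 column. It passed the level limit only through the BDE-47 column. Its nearest named loci in rn5 are Crip1 and Dgcr2, the latter 295727 bp away, so the stretch up to Adam6 is wider than its own gap.

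In 2 further intervals GRCr8 lists V or C segments. On chromosome 11, between Olr1570, an olfactory receptor gene, and Hira, a histone chaperone gene, chr11:88525879-88526393 was listed at 0 with 38.6 FPKM in the BDE-47 column, and chr11:89137332-89137936 had 0.0177 and 97.0 FPKM. On chromosome 15, where GRCr8 lists 180 V segments among 219 genes, 5 of 9 members were higher and 0 lower, with a median difference of 1.04. There chr15:33975390-33975535 had 0.543 FPKM in the vehicle column and 9.38 FPKM in the BDE-47 column, chr15:34534050-34534214 had 24.1 and 35.0 FPKM, and chr15:34724103-34724243 had 11.8 and 7.41 FPKM. Together 29 members lay in intervals with V or C segments, and 21 of them were higher, 0 were lower and the median difference was 2.20. Of the 29, 18 are on chromosome 6, where the interval was picked for its values, 11 were listed at 0 in vehicle and 18 were under 1 FPKM there, so no comparison with the other members is drawn from them. The genes that GRCr8 lists between the flanking genes are not matched to the members one by one.

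Genes of antibody-making cells did not all go the same way. Mzb1, an endoplasmic reticulum protein of B and plasma cells, had 0.266 FPKM in the vehicle column and 6.11 FPKM in the BDE-47 column. Sdc1, the surface proteoglycan used to recognise plasma cells, had 0.342 and 2.09 FPKM. Of the 10 listed B and plasma cell genes in the table, 4 had a mean of at least 1 FPKM, and 2 of these were higher and 0 lower, beside 22.5% and 2.82% of all loci. The sum of the list was 201 FPKM in the vehicle column and 284 FPKM in the BDE-47 column, most of it from Ms4a1 with 182 and 256 FPKM. The next most abundant, Derl3, of protein quality control in the endoplasmic reticulum, had 17.3 and 13.7 FPKM. Of 10 T cell genes, 5 had a mean of at least 1 FPKM, and 2 were higher and 0 lower. The sum of that list was 12.6 FPKM in vehicle and 19.0 FPKM in BDE-47. None of the genes of either list in the table was listed at 0 in both columns. Cd8a, the coreceptor of cytotoxic T cells, had 1.17 and 3.71 FPKM, while Lck, a T cell kinase and the most abundant of the list, had 7.57 and 4.89 FPKM. Both lists were added after the intervals had been seen, and their part in the values of the members was not tested.

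The chromosome 3 interval, between the olfactory receptor genes Olr410 and Olr411, covers 4.46 Mb of rn5. Both flanking genes were listed at 0 in both columns, and in GRCr8 these genes lie next to each other with 0 genes between them. All 14 members had a larger value in the BDE-47 column, 12 of them by at least 2-fold, and their sums were 42.5 FPKM in the vehicle column and 1350 FPKM in the BDE-47 column. Again 12 were under 1 FPKM in vehicle and so passed the level limit only through BDE-47, and before that limit 15 of 40 loci were higher, with a median difference of 0.40 against 3.99 for the members. The strongest were chr3:23144332-23144635 with 0.281 and 662 FPKM and chr3:22434673-22435267 with 0.0216 and 383 FPKM. At a listed 0 in the vehicle column, chr3:24562055-24562478 had 77.7 FPKM and chr3:22935593-22936105 had 49.5 FPKM in the BDE-47 column. Within 2-fold were chr3:23954777-23954883 with 39.4 FPKM in the vehicle column and 44.6 FPKM in the BDE-47 column, which gives most of the vehicle sum, and chr3:24687633-24687889 with 0.507 and 1.69 FPKM. Of 24 long unnamed loci in this interval, 11 were higher and 1 lower. The median level of these 24 was 0.629 FPKM in the vehicle column, and 7 were listed at 0 there. Those under 1 FPKM in the vehicle column passed the level limit only through the BDE-47 column. Several of these rows have the same span of 456465 bp and may share bounds.

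The chromosome 14 interval runs over 0.658 Mb from Dtwd2, a gene for a tRNA-modifying enzyme, to the ribosomal RNA gene Rn45s. Of its 9 members, 7 were higher and 0 lower, with sums of 63.9 FPKM in the vehicle column and 680 FPKM in the BDE-47 column. Here 5 of the 9 were under 1 FPKM in the vehicle column and so passed the level limit only through the BDE-47 column. Before the level limit, 7 of 20 loci were higher, with a median difference of 0.43 against 2.29 for the members. The strongest level was at chr14:46465832-46465925 with 37.8 and 189 FPKM. At a listed 0 in the vehicle column, chr14:46808054-46808131, which is 6865 bp from the ribosomal RNA locus, had 119 FPKM, chr14:46783175-46783285 had 73.5 FPKM and chr14:46725009-46725090 had 71.5 FPKM in the BDE-47 column. The ribosomal RNA rows went the other way. LOC257642, which has the same bounds as Rn45s, had 343 FPKM in the vehicle column and 26.9 FPKM in the BDE-47 column, and the row that names Rn45s and Rn5-8s had 32.2 and 5.70 FPKM. The 3 long unnamed loci of the interval were all within 2-fold. Ribosomal RNA has no poly(A) tail, and the share of it left in each library is not known.

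**Figure D3:**
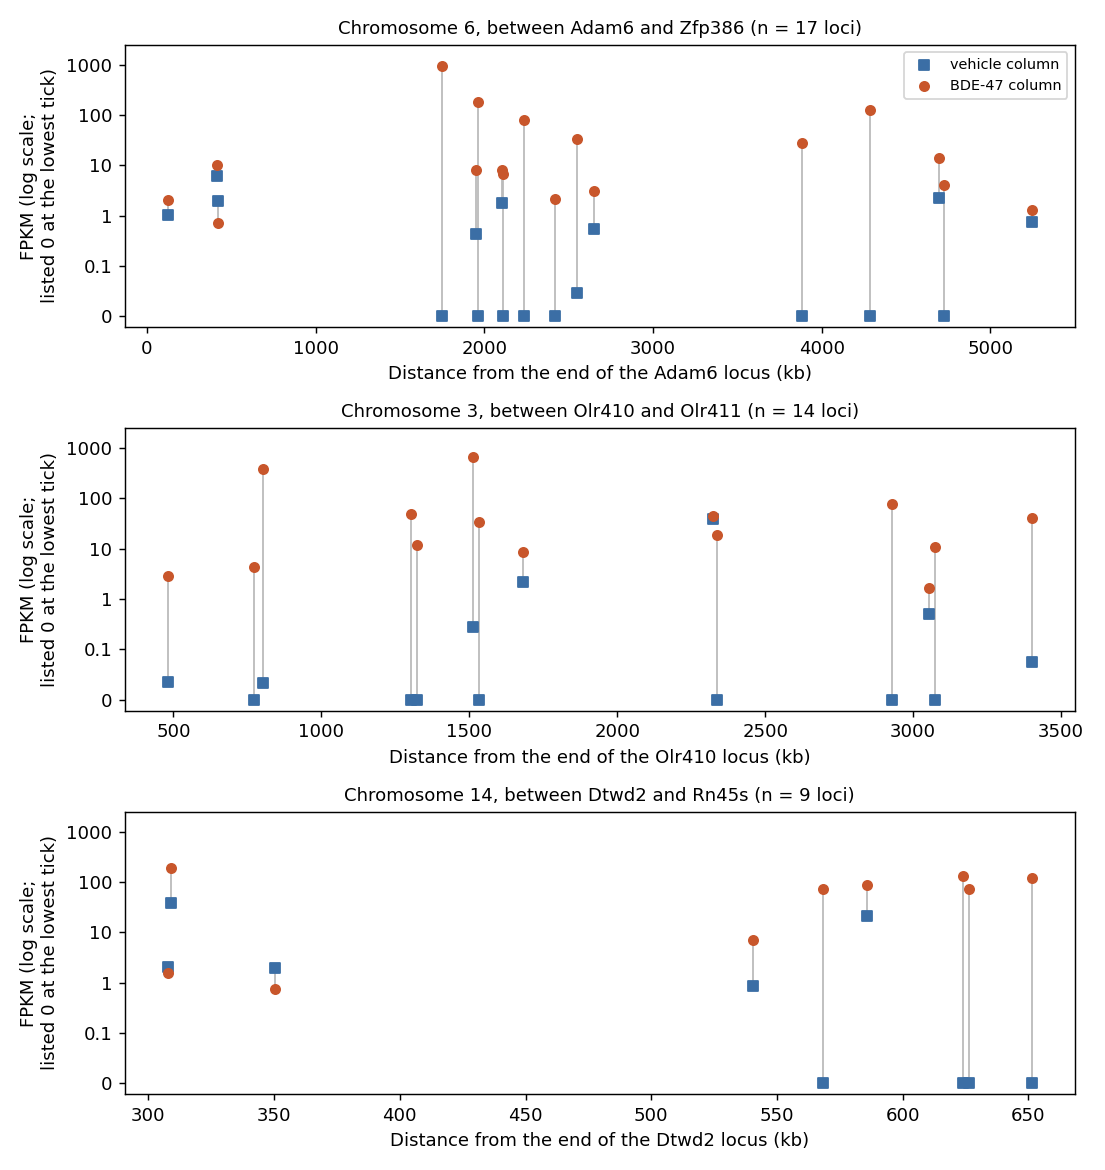
Level of the members of the chromosome 6, 3 and 14 intervals in vehicle (squares) and BDE-47 (circles), in FPKM on a log scale with a listed 0 at the lowest tick, against distance in kb from the left flanking gene; grey lines join the values of 1 locus. Of the 40 members shown, 37 have the larger value in BDE-47, and the sums are 14.9 and 1435, 42.5 and 1350, and 63.9 and 680 FPKM. The intervals were picked after their values were seen. In vehicle, 12, 12 and 5 members were under 1 FPKM, so these passed the level limit only through BDE-47 and had to be larger there. Over all 4993 members the median difference was 0.60.

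The intervals hold few of the members that differ. Without their 40 members, 1590 of 4953 members were higher and 167 lower, and 40 of the 55 members listed at 0 in vehicle with at least 10 FPKM in BDE-47 lay outside them.

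The lowest of the 167 lower members was chr15:9452926-9453022, a locus of 96 bp with 416 FPKM in the vehicle column and listed at 0 in the BDE-47 column. It lies 45416 bp from a locus of Spetex-2 genes, which are testis genes of the rat, and 55146 bp from Cd99l2, an adhesion protein gene. Then came chrX:44457901-44458039 with 24.3 and 1.04 FPKM, a difference of -3.63, and chr1:273763852-273763990 with 29.4 and 3.39 FPKM, a difference of -2.79. The chromosome 1 locus lies in the short gap between Arl3, a small GTPase of ciliary transport, 477 bp away, and Sfxn2, a mitochondrial membrane protein gene, 169 bp away.

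The 10 lowest members were again short, which does not hold for all lower ones. Of all lower members, 76 were under 200 bp (4.59% of that class) and 91 were of 200 bp or more (2.73%). Of the 10 lowest, 7 were under 150 bp, and their spans ran from 96 to 208 bp. The locus chr11:37484478-37484620 had 45.9 FPKM in the vehicle column and 9.13 FPKM in the BDE-47 column, and lies between Cbr1 and Cbr3, which encode carbonyl reductases. The locus chr7:60256281-60256397 had 23.3 and 4.29 FPKM, chr6:108176183-108176344 had 10.9 and 1.36 FPKM, and chr11:15257526-15257734 had 5.06 and 0.117 FPKM. The last lies 3919 bp from Robo2, an axon guidance receptor gene. The locus chr4:56564178-56564326, with 9.85 and 1.46 FPKM, was lower while Irf5, an interferon regulatory factor gene 7966 bp away, had 0.865 and 5.24 FPKM. The 10 lowest were on 7 chromosomes, and none lay in the chromosome 3 or 14 interval or in an interval with V or C segments.

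Most of the most abundant members lay within 2-fold. The highest mean was at chr13:77449963-77450045, a locus of 82 bp between Cacna1e, a calcium channel gene, and Ier5, an immediate early gene, with 1252 FPKM in the vehicle column and 2665 FPKM in the BDE-47 column. Next came chr7:142294242-142294387 with 1859 and 1060 FPKM, chr14:36690956-36691177 with 1428 and 1024 FPKM, chr15:92605684-92605797 with 1458 and 949 FPKM, and chrX:73908413-73908548 with 1121 and 843 FPKM. These last 4 lay within 2-fold, with the lower value in the BDE-47 column. Of the 10 most abundant, 2 were higher and 8 within 2-fold, and their spans ran from 78 to 221 bp. They held 22.4% of the members' sum in vehicle and 15.1% in BDE-47. None was within 10 kb of a named locus.

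Some members stand in rows. With gaps under 10 kb between neighbouring members, 1306 fell into 558 chains of at least 2, and 3687 stood alone. The longest chain had 13 members over chr5:24331711-24342626, starting 1619 bp from Sdcbp, which encodes a scaffold protein of vesicle transport and had 82.7 FPKM in the vehicle column and 124 FPKM in the BDE-47 column. Within the chain 3 members were higher and 10 within 2-fold, and the differences ran from 0.01 to 1.73. The levels along it were far apart. The strongest member, chr5:24339304-24339384, had 35.3 and 119 FPKM, while chr5:24336955-24337751 had 1.06 and 1.07 FPKM. In the chain with the highest sum, chr7:142294242-142294387, named above, was joined by chr7:142294590-142294745 with 34.8 and 56.1 FPKM, so neighbours 203 bp apart pointed in opposite directions, both within 2-fold. In 56 rows the bounds were shared with another member, so the 4993 members have 4965 sets of bounds, and such rows can share reads.

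The distance to the nearest named locus was not followed by a steady course in the share higher. It was 26.9% of 655 members under 1 kb, 35.8% of 962 from 1 to 10 kb, 31.3% of 1762 from 10 to 100 kb and 34.0% of 1611 at 100 kb or more. Members under 1 kb were wider, with a median span of 311 bp against 243, 233 and 222 bp in the other classes. The part of span in these shares was not tested. Very near a gene, members tended to differ as the gene did. Across the 619 members under 1 kb whose nearest named locus reached a mean of 1 FPKM, the differences of member and gene had a Pearson correlation of 0.39 and a Spearman correlation of 0.37. These were 0.14 and 0.15 from 1 to 10 kb over 811 members, 0.08 and 0.13 from 10 to 100 kb over 1306, and -0.02 and -0.01 at 100 kb or more over 1084. All points share the same 2 columns, loci are not independent replicates, and some members share a nearest gene.

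Under 1 kb, 71 of 141 members (50.4%) were higher where the gene was higher, 87 of 444 (19.6%) where it was within 2-fold and 3 of 34 (8.82%) where it was lower. At 100 kb or more these shares were 33.4%, 32.7% and 33.3%. A member near a gene can be an unannotated end of that gene's transcript, and which members are was not tested.

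**Figure D4:**
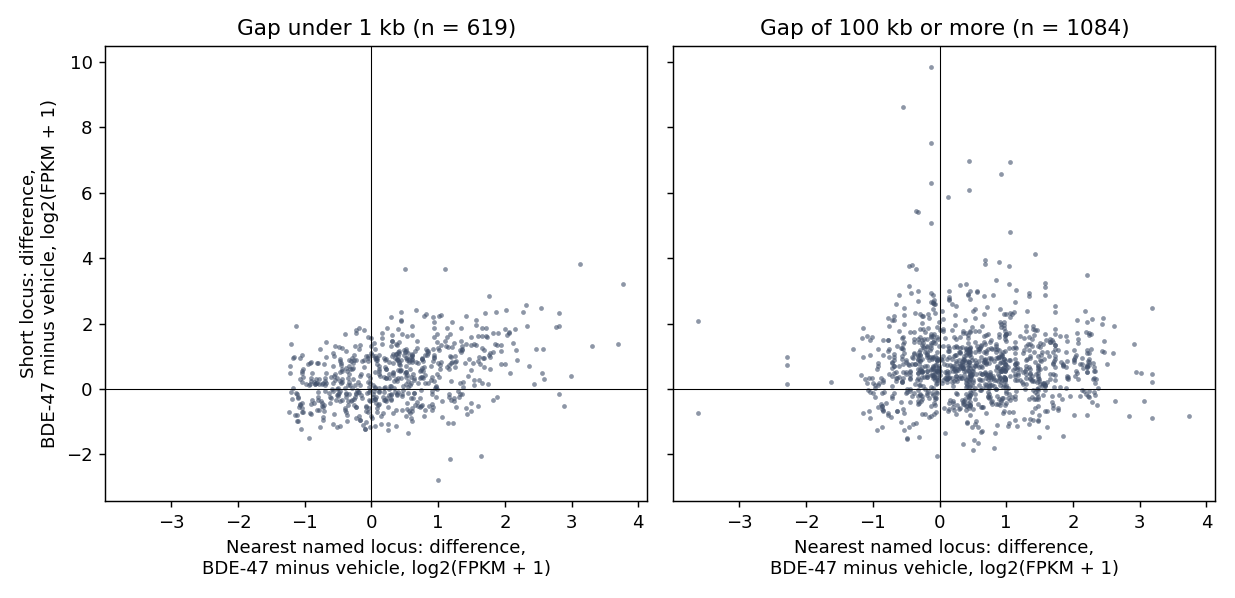
Difference of a member (vertical axis) against that of its nearest named locus (horizontal axis), both in log2(FPKM + 1), BDE-47 minus vehicle, for gaps under 1 kb (left) and of 100 kb or more (right). Each point is 1 member whose nearest named locus reached a mean of 1 FPKM, and the Pearson correlation is 0.39 on the left and -0.02 on the right.

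The share higher ran from 26.3% on chromosome 7 to 38.7% on chromosome 4 over 21 nuclear chromosomes. On the mitochondrial genome, for which the table names no gene, 3 members were listed. The locus chrM:98-988 had 0.559 FPKM in the vehicle column and 2.03 FPKM in the BDE-47 column, chrM:7020-7677 had 2.97 and 7.84 FPKM, and chrM:9497-9794 had 3.51 and 9.51 FPKM. The latter 2 were at least 2-fold higher, and the first was not, at a difference of 0.96.

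The kinds of gene that GRCr8 lists between a member's flanking genes went with similar shares of higher members. The share higher was 34.9% of 464 members in intervals with a tRNA gene, 32.9% of 844 with a small nuclear RNA gene, 32.0% of 871 with a small nucleolar RNA gene and 33.7% of 2564 with a pseudogene. It was 31.2% of 2926 with a long noncoding RNA gene and 32.5% of 695 where no gene was listed. Intervals can hold several kinds and count under each. Of the 4993 members, 4591 could be placed between the same pair of flanking named genes in both assemblies. The pair was not always the nearest named gene on each side.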

How the data were processed

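The submitters' processing notes name TopHat2, Cuffdiff 2.1.1 and build rn5. Not given in the sources used here: how libraries were combined, the annotation, the strand setting and the handling of multiply mapped reads. For each locus and group the authors deposited the log2 of 1 FPKM value, with a floor of -10, which was read as listed at 0, and their log2 ratio, which equals the difference of the columns within 0.01. The plan had a test for values per library; the table holds group values, so no test was run.

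Values were turned back to FPKM, and differences were taken with a pseudocount of 1. Higher and lower mean at least 2-fold. Loci named are the 10 highest and 10 lowest differences, the 10 highest means, the 10 highest listed at 0 in 1 column, the longest and the highest chain, the mitochondrial loci, and loci of intervals chosen after their values were seen. Members, lists and intervals were chosen with earlier results of these data known. The distances to named loci were checked on simulated loci. The 2-fold calls were checked on members' vehicle values changed by a known larger fold without noise. Their outcome followed from the rule, so this checks the code and not the calls. Flanking genes were looked up by symbol in a RefSeq table of GRCr8, where 16873 of 17274 symbols were found. Its coordinates were used to find a flanking pair at a similar distance in both assemblies and to list the genes between the pair. Where the nearest named genes gave no such pair, the next ones were tried. All coordinates printed are on rn5. No rn5 sequence was used here, so no sequence is shown. Marker lists of late spermatids, meiotic germ cells, Sertoli, Leydig and peritubular cells, macrophages, endothelium, red blood cells, epididymis and liver were counted. Python was used throughout. The value of 1 gene of the lists is not reported here.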

Additional observations from a re-analysis of the deposited data

How the results depend on the processing

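The main values are 4993 members, 1622 higher, 167 lower, a median difference of 0.60 and 16.5% higher among members of 300 bp or more. With a pseudocount of 0.1, 366 were lower and the last share was 26.7%. With 0.01 these were 391 and 28.0%, and with the authors' log2 ratio 398 and 28.4%, with medians of 0.92 and 0.93. With a mean of at least 5 FPKM, 1194 members remained in the count, 513 higher and 103 lower. With no level limit, 30420 loci had a median of 0.28 and a share of 1.80%. Median-of-ratios scaling gave 1059 higher, 351 lower, a median of 0.31 and 10.4%. Quantile normalization gave 995, 477, 0.21 and 9.21%. Equal column sums, leaving out the 10 highest loci and mitochondrial ones, gave 255 lower. Alternatives chosen after seeing the data were at least 1 FPKM in both columns, which gave 2985 members, 669 higher, a median of 0.32 and 8.02%, and FPKM times span of at least 1, which gave 1716 members, 550 higher and a median of 0.38. The cause was not tested, apart from the smaller number of loci under a stricter limit. Of 294 values of the 49 named loci under alternatives, 273 stayed on the same side of 2-fold, 12 fell within 2-fold and 9 passed it. Direction was compared only for loci past 2-fold in the main values, and 0 of their values reversed. Changed pseudocounts and the authors' ratio cannot reverse a sign, and the rescalings by a constant were smaller than 2-fold. Only quantile normalization could have given a reversal, so that 0 was largely fixed in advance. Loci within 2-fold could change sign and still count as staying.

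No paired analysis was possible because the table holds group values only, and leaving out libraries was not run for the same reason. In the other lists, 3 of 14 meiotic genes, 5 of 9 peritubular, 2 of 6 endothelial, 5 of 5 red blood cell, 0 of 2 epididymal and 2 of 5 liver genes were higher, and 1 liver gene was lower.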
